A study of Homo sapiens with 6 samples.

Results

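The regions described here are 720 strong peaks of N6-methyladenosine (m6A) immunoprecipitation in control U-251 MG cells, a human glioblastoma cell line, that had no counterpart in either of 2 knockdowns. They were selected on the peak lists themselves: a control peak had to have a score of 21 or more, to be wider than 100 nt, and to share no base on the same strand with any peak of the TRA2A knockdown or of the METTL3 knockdown. The control list held 9206 peaks, of which 1646 passed both thresholds. The study set cells with a control hairpin (shNC) against cells with a hairpin against TRA2A (shTRA2A) or METTL3 (shMETTL3), all in the same line, with 1 immunoprecipitated and 1 input library per condition, 6 libraries in all. Each condition is represented by 1 deposited peak list, so conditions were compared by counts and shares without replicates or tests. The 95% intervals in parentheses are of the exact Clopper-Pearson kind and allow for counting error only. The score is the authors' own value for each peak, on a scale that no source used here states, and it served only to rank and filter peaks within a list. No source used here gives the number of clones or hairpins behind a condition, or the depth.

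m6A is the commonest internal mark of messenger RNA. A nuclear complex writes it, with METTL3 as the catalytic subunit and METTL14, WTAP, ZC3H13, VIRMA and RBM15 or RBM15B as partners, mostly at short motifs built around a GGAC core, in long internal exons and towards the ends of transcripts. FTO and ALKBH5 can remove the mark, and YTH-domain proteins read it and pass the RNA to splicing, export, translation or decay. TRA2A is an SR-like protein that binds RNA and regulates the choice of exons. A peak list holds no RNA level, so a lost mark and a lost transcript cannot be told apart. The lists also could not show how far each hairpin lowered its target: TRA2A had 0 control peaks and 1 peak in shTRA2A, and METTL3 had 0 peaks in all 3 lists. Of 29 marker genes of other brain and blood cells, 2 had a control peak and 0 had a member, but peaks are no measure of cell type.

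No genome was used, so peak sequence could be read where a member crossed a RefSeq start window (GRCh38.p14, 250 bases before to 50 after an annotated start). On the same strand this was so for 12 of the 720 members, 1.67%, beside 1.26% of the 317 strong, wide control peaks found in both knockdowns. In these stretches the m6A core GGAC followed by T, by A or by C was searched on both strands, which gives 3 spellings of 5 letters, of which a site can match only 1. They occurred 11 times on the peak's own strand, in 6 members, and 4 times on the other strand, in 3 members. The member of CREBZF, a bZIP transcription factor, is shown whole. It is the only regular peak (1 block, a multiple of 25 nt, at most 1000 nt wide) among the members that crossed a start window. It covered chr11:85663633-85663832 on the minus strand, was 200 nt wide and scored 26.3. All of it lay before an annotated start at chr11:85663601. That start is an internal one, since the gene body spans chr11:85657990-85682863, so the peak lay inside the gene and not upstream of it. The single 30-base sites are shown to let a reader see the motif in its context, in the order DIO2, ALG11 (in the start window of UTP14C), PCDHGB5 (in the start window of PCDHGA9) and XRCC1. Capitals mark the motif matches.
CREBZF, chr11:85663633-85663832, minus: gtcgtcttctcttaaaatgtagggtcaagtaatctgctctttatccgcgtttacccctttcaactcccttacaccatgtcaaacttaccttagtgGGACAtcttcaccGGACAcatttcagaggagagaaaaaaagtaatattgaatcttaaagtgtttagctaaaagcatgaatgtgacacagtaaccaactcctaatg
DIO2, chr14:80211656-80211685, minus: gctggagagactGGACTtagtcttgccatt
ALG11, chr13:52024451-52024480, plus: gcttttatttatGGACTtgttggttcttgc
ALG11, chr13:52024582-52024611, plus: gcagacatttctGGACAttcccttacatga
PCDHGB5, chr5:141402705-141402734, plus: agtaacggcttaGGACTctgagcgccgctg
XRCC1, chr19:43575494-43575523, minus: tccctgcccctcGGACCccatactctacct

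The CREBZF stretch held GGACA at 2 places and neither of the other spellings. The same 200-base slice of 34943 RefSeq start windows held GGACA in 17.5% and any of the 3 spellings in 44.2%. Whole windows of 300 bases held any of the 3 in 58.7% on the gene's strand and in 58.8% on the other strand, so a match is common and is a description only.

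Absence from both lists was itself common. Over all control peaks 7135 of 9206, 77.5%, had no counterpart, and over the strong, wide ones 720 of 1646, 43.7%; since that contrast selected the members, both shares are descriptions. The share without a counterpart was lower at each higher score class. It was 61.8% (57.0 to 66.3) of 434 peaks with scores from 21 to 25, 42.1% (37.2 to 47.1) of 397 peaks from 30 to 40, and 15.6% (10.5 to 21.9) of 173 peaks of 60 or more. A strong control peak was missing more often from the shorter shTRA2A list of 2736 peaks than from the shMETTL3 list of 5433. At scores of 60 or more, 43.9% (36.4 to 51.7) were missing from shTRA2A and 24.9% (18.6 to 31.98) from shMETTL3. The knockdown lists held few peaks of such a score: 28 peaks of shTRA2A, 1.02%, and 240 of shMETTL3, 4.42%, scored 21 or more, beside 1836 control peaks, 19.9%, though the lists' scales may differ.

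**Figure D1:**
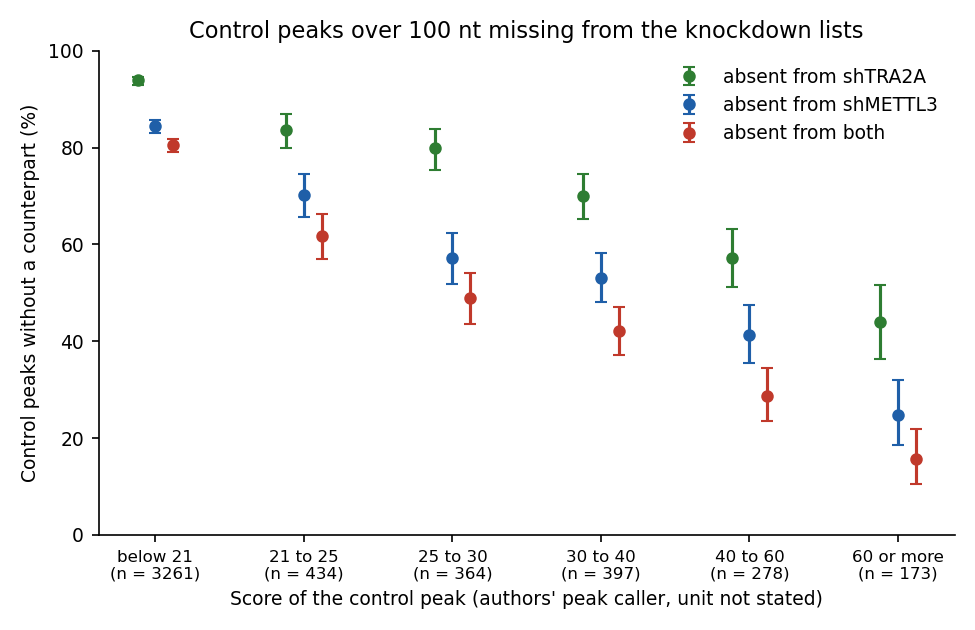
Percent of control peaks over 100 nt wide with no overlapping peak in shTRA2A, in shMETTL3 or in both, by score class of the control peak, with exact 95% intervals; n is the number of control peaks in the class. The share absent from both goes from 80.5% below a score of 21 to 15.6% at 60 or more.

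Most members sat low in the allowed range. Their scores ran from 21.1 to 149 with a median of 27.3 and quartiles of 23.5 and 33.9, whereas the peaks found in both knockdowns had a median of 41.2. Among the 100 control peaks with the highest score 14 were members, and among the highest 1000 there were 311. Just inside the threshold lay peaks of ISY1 (21.08), DYNC2I1 (21.09), ITPRID2 (21.10), TBX3 (21.12) and RLF (21.12), and just outside it, also without a counterpart, peaks of DBF4 (20.998), HAUS3 (20.995), MARCHF6 (20.995), USPL1 (20.96) and ARID1B (20.94). The narrowest members were 125 nt wide and included peaks of ERRFI1 (score 41.9), BAZ1B (38.5) and ADAR (37.0). Absent peaks of 100 nt, just under the width threshold, included those of IFIT1 and MAP1B (44.0 each) and FOXO1 (42.9). By width, the share without a counterpart was 47.1% (40.4 to 53.9) for strong control peaks of 101 to 200 nt, 43.7% (39.8 to 47.6) for 201 to 400 nt, 32.5% (27.6 to 37.8) for 401 to 1000 nt and 50.8% (46.0 to 55.6) for those over 1000 nt.

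The members came in 2 forms. Of the 720, 452 (62.8%) were regular, with a median width of 300 nt, and 268 were of another shape, with a median width of 2440 nt. The regular share was 74.9% (70.7 to 78.9) among strong, wide peaks found in shMETTL3 alone, 69.1% (63.7 to 74.1) among those found in both lists and 54.3% (46.3 to 62.2) among those found in shTRA2A alone. The members of other shape carried most of the covered bases: members spanned 1026151 nt in all, and the regular ones 138925 nt of that. Scores differed little between the forms, with medians of 26.9 for regular members and 28.1 for the others.

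**Figure D2:**
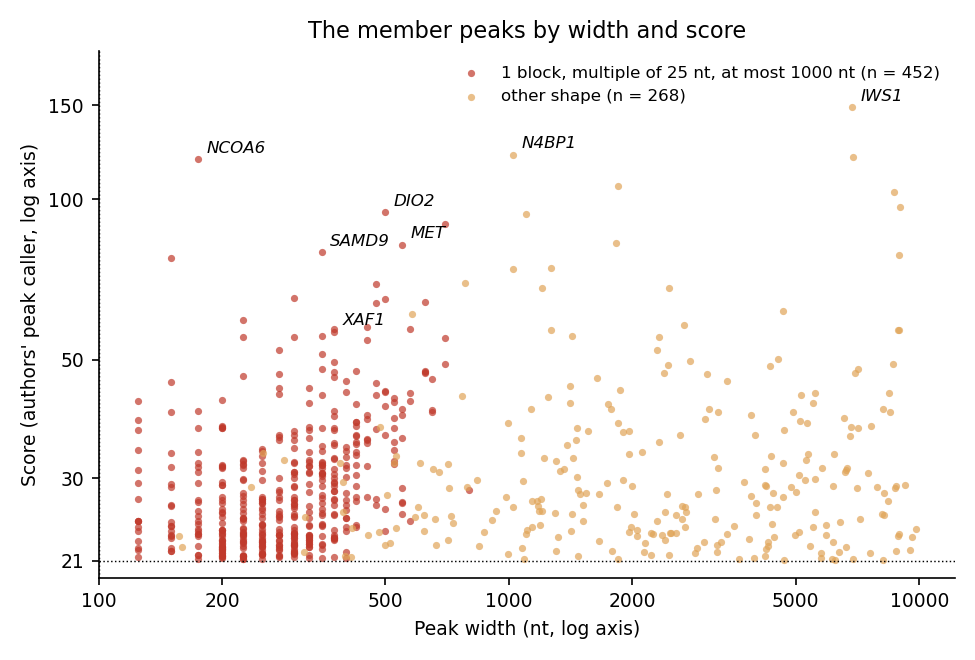
Width (nt) and score of the 720 members on log axes, with the 452 regular peaks and the 268 of other shape in separate colours; dotted lines mark the thresholds at a score of 21 and a width of 100 nt, and 7 genes are named at their strongest member. The regular peaks lie between 125 and 800 nt, and the other peaks reach 9811 nt.

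After a peak inside NCOA6, described below with its strand, the strongest regular members lay in DIO2, TMCC1, MET, SAMD9 and ENAH. The peak of DIO2, the deiodinase that converts thyroxine to the active thyroid hormone, covered chr14:80202301-80202800 and scored 94.7, the 60th of all control peaks. TMCC1, a membrane protein of the endoplasmic reticulum, followed with 89.9 over 700 nt. MET, the receptor for hepatocyte growth factor, had a member of 550 nt at chr7:116797704-116798253, at 99.7% of the gene body, that scored 82.2. SAMD9, an interferon-induced antiviral factor, had 79.7 over 350 nt. ENAH, a regulator of actin filaments, had 77.5 over 150 nt. None of these 5 peaks had a counterpart at a short distance: the nearest peak of either knockdown on the strand was 975 nt away for SAMD9 and 80949 nt or more for the other 4.

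A next group of regular members scored between 55 and 70. PDGFC, a ligand of the platelet-derived growth factor receptors, had 69.4, and SON, a large protein of nuclear speckles that supports splicing, had 65.0. CCDC82 had 64.3, TOR1AIP2, a partner of torsin ATPases, 63.9, and TENT5A, a non-canonical poly(A) polymerase, 59.4. ARRDC3, an arrestin-like adaptor, had 57.6, the transcription factor ZNF281 57.2, XAF1, an interferon-induced pro-apoptotic protein, 56.5, and SAMD9L, the paralogue of SAMD9, 55.4. PDGFC shows how close a counterpart could be and still be missed by the rule: a shMETTL3 peak of 4666 nt lay 75 nt from it.

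The highest score of a regular member, 119, belonged to a 175-nt peak at chr20:34741401-34741575 inside the body of NCOA6, a coactivator of nuclear receptors. It lay on the plus strand, whereas the other 4 control peaks and the 4 shMETTL3 peaks of that gene lay on the minus strand. A control peak scoring 8.80 covered nearly the same bases on the minus strand. The strand of NCOA6 itself was not known from the tables used.

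Of other shape, the strongest members were peaks of IWS1 (149), N4BP1 (121), ZFPM2 (120), POLR1F (106) and LINC00342 (103). IWS1 encodes an elongation factor of RNA polymerase II, and its member of 6864 nt ran on the strand opposite to the gene. On the gene's own strand a shTRA2A peak of 175 nt (17.7) and a shMETTL3 peak of 150 nt (24.6) lay over the same bases. N4BP1, an interferon-inducible RNA-binding protein that restricts viruses, had a member of 1025 nt and a second, regular one of 175 nt that scored 23.8, with 4 control peaks and 0 knockdown peaks in the gene. ZFPM2, a cofactor of GATA factors, had 4 shTRA2A peaks elsewhere in its body, the nearest 971 nt from the member. POLR1F, a subunit of RNA polymerase I, had this 1 control peak and 0 knockdown peaks.

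Position along the gene was not used in the selection. Of the 715 members inside a gene, 315 had their centre beyond 80% of the gene body, 44.1% (40.4 to 47.8), beside 43.5% (37.9 to 49.2) of the peaks found in both knockdowns, and 47.2% (42.4 to 51.9) of those found in shMETTL3 alone. The first 20% of the body held 50 members, 6.99% (5.23 to 9.12), and 11.4% (8.13 to 15.5), 11.1% (8.30 to 14.4) and 11.8% (7.26 to 17.8) of the peaks found in both, in shMETTL3 alone and in shTRA2A alone. These intervals overlap, and gene bodies include introns. Among regular members alone, the first 20% held 6.44% (4.36 to 9.12) and the last 20% held 44.7% (40.01 to 49.4). Of the regular peaks found in both, in shMETTL3 alone and in shTRA2A alone, the last 20% held 45.4%, 47.9% and 44.8%. The first 20% held 11.01%, 11.1% and 14.9% of them. The intervals of all these shares overlap those of the regular members. Only for regular peaks that missed a threshold was there no overlap with the members. Of these peaks the first 20% held 10.2% (9.43 to 10.96) and the last 20% held 52.9% (51.7 to 54.2). For peaks of other shape the order in the last 20% was reversed, with overlapping intervals. It held 43.0% (37.0 to 49.2) of such members and 35.0% (32.4 to 37.7) of such peaks that missed a threshold. Regular members in the first 20% included those of CCDC82, of the ubiquitin ligase RNF6 (score 48.1), of ARHGAP5, a GTPase-activating protein (47.5), of ERC1, a presynaptic scaffold protein (44.3), of PURB, a single-stranded nucleic acid binding protein (38.2), and of BPTF, a chromatin remodelling subunit (36.7).

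**Figure D3:**
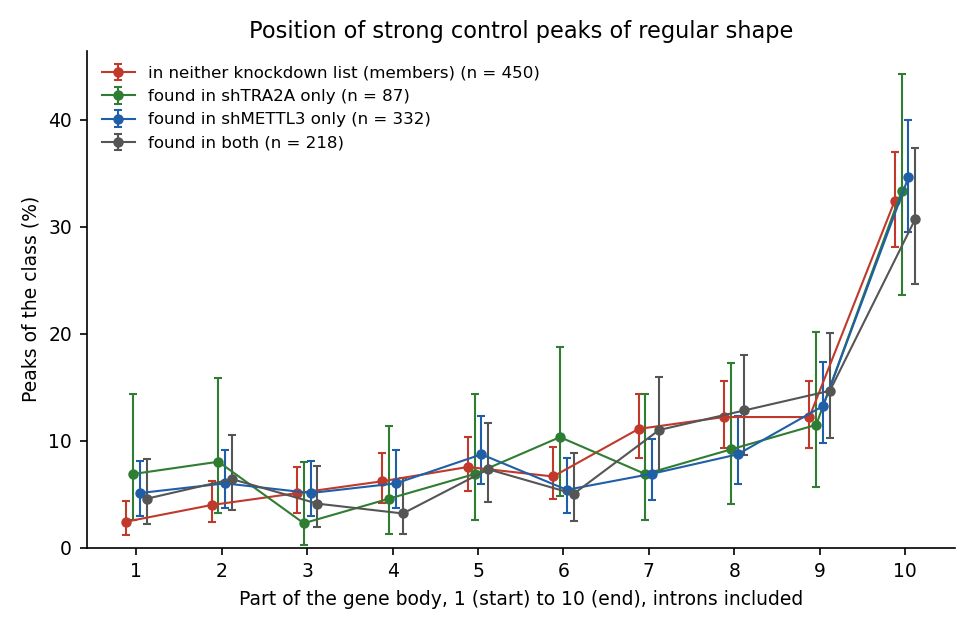
Percent of regular strong, wide control peaks in each of 10 equal parts of the gene body, from start to end, for the 450 members and for peaks found in shTRA2A alone, shMETTL3 alone or both, with exact 95% intervals. All 4 classes are densest in part 10, and the intervals of the members overlap those of the other classes in each of the 10 parts.

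Distance to the knockdown peaks varied over the whole range. The median distance from a member to the nearest knockdown peak on the same strand was 16305 nt, with 5754 nt for regular members and 26539 nt for the others. It was 30358 nt to the shMETTL3 list of 5433 peaks and 285105 nt to the shTRA2A list of 2736 peaks. For control peaks that missed a threshold, those with a counterpart included, these medians were 28878 nt and 247830 nt. To the nearest peak of either list their median was 10347 nt. A knockdown peak lay within 100 nt of 64 members, 8.89% (6.91 to 11.2), within 500 nt of 184, 25.6% (22.4 to 28.9), and within 1000 nt of 231, 32.1% (28.7 to 35.6). Close neighbours included B4GALT5, a galactosyltransferase (score 68.1, a shTRA2A peak 50 nt away), RDX, the radixin that links actin to the membrane (55.5, a shMETTL3 peak 50 nt away), and ERCC5, a nuclease of excision repair (47.3, a shMETTL3 peak directly adjacent with 0 nt between). Control peaks that did have a counterpart also stood near: 165 members, 22.9% (19.9 to 26.2), had one within 1000 nt, and 70, 9.72% (7.66 to 12.1), had one on both sides in the same gene.

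The 715 members lay in 602 genes, 516 of which had 1 member. There were 86 genes with 2 or more members and 20 with 3 or more. Each of 7 genes had 4: BOD1L1, SAMD9, RLF, GOLGB1, CENPF, FAT1 and ZNF587. In RLF, a zinc finger protein, the 4 members scored 36.2, 21.1, 34.3 and 24.3 in order along the transcript, the other 2 control peaks scored 13.2 and 20.0, and 0 peaks were listed in either knockdown.

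SAMD9 differed from RLF in keeping some peaks. Its members scored 29.3, 37.6, 65.3 and 79.7 in the direction of transcription, and 4 of its 12 control peaks overlapped one of 6 shMETTL3 peaks; shTRA2A had 0. A control peak of 475 nt scoring 89.3 and another of 375 nt scoring 88.1, both above every SAMD9 member, were among the peaks with a counterpart. The 2 strongest members lay side by side at the downstream end, with 25 nt between them, beyond every shMETTL3 peak of the gene.

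GOLGB1, the Golgi tether giantin, had 16 control peaks, 2 with a counterpart and 4 members. Its members at chr3:121692128-121692552 (36.0) and chr3:121695387-121695761 (31.3) lay on either side of a control peak of the same strength, chr3:121694512-121694986 (36.1), that met peaks of both knockdowns. CENPF, a kinetochore-associated protein, had 26 control peaks, of which 10 had a counterpart and 4 were members, scoring 25.2 to 35.7. FAT1, a giant cadherin, had 21 control peaks, 8 with a counterpart and 4 members of 21.9 to 30.4. BOD1L1, which protects stalled replication forks, had 17, with 3 found again and 4 members of 25.8 to 93.8.

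In DIO2 no peak was found again on its strand. The gene held 8 control peaks there and 0 peaks in either knockdown list, and the nearest knockdown peak on the strand was 562038 nt away. Its 3 members scored 27.7, 23.8 and 94.7 in the direction of transcription; the first of these is 3893 nt wide, and the next holds the GGACT site printed above. On the other strand, a shMETTL3 peak of 8001 nt scoring 12.7, placed in DIO2-AS1, covered the first 2 of these members whole. The other 5 control peaks of DIO2 scored 12.7 to 27.6 and were at most 200 nt wide.

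**Figure D4:**
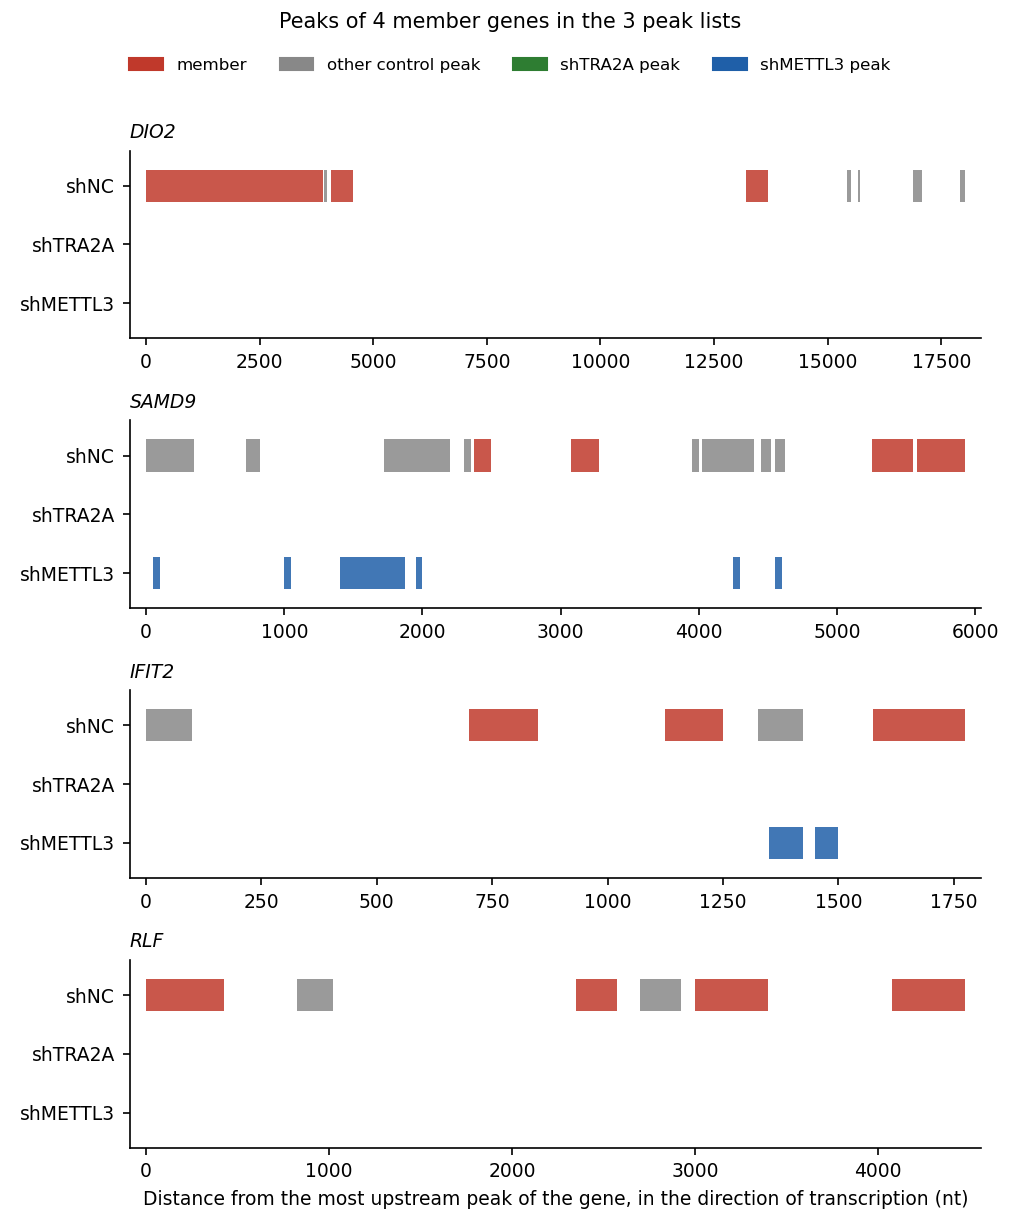
Peaks of DIO2, SAMD9, IFIT2 and RLF in the 3 lists, on the strand of most control peaks, as distance in nt from the most upstream peak in the direction of transcription; members are red, other control peaks grey and shMETTL3 peaks blue. The shTRA2A row is empty in all 4 genes, and the shMETTL3 row is empty for DIO2 and RLF, with 6 peaks in SAMD9 and 2 in IFIT2; a shMETTL3 peak of 8001 nt on the other strand of DIO2 is not drawn.

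A gene with a member often held knockdown peaks elsewhere. Of the 602 member genes, 240 had 0 peaks in either knockdown list, 39.9% (35.9 to 43.9), beside 44.7% of the 4403 genes with any control peak. A shMETTL3 peak alone was present in 160 genes, 26.6% (23.1 to 30.3), a shTRA2A peak alone in 47, 7.81% (5.79 to 10.2), and both in 155, 25.7% (22.3 to 29.4). Where a member was the gene's only control peak, 115 of 160 genes had no knockdown peak, 71.9% (64.2 to 78.7), beside 55.6% (53.6 to 57.6) of all 2332 genes with 1 control peak. The selection sets part of this difference, since a lone control peak that was found again cannot be a member, and nothing is read from it. With 3 to 5 control peaks the share was 24.7% (19.1 to 30.9) of member genes and 24.9% (22.0 to 27.9) of all such genes, intervals that nearly coincide. In 134 member genes a knockdown peak was listed though none of the gene's control peaks had a counterpart, so the peaks sat at other places or on the other strand. Genes whose single control peak was a member and that had 0 knockdown peaks included POLR1F, EP300-AS1 (82.7), ENAH, CCDC82 and C1R, a protease of the complement cascade (61.6).

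Of the interferon-stimulated and antiviral genes, 19 had a strong, wide control peak and 15 of these (78.9%) had a member, 25 peaks in all. Over all genes it was 602 of 1167 (51.6%). A gene counts in such a share if any 1 of its strong, wide peaks is a member, so genes with many control peaks qualify more easily. The shares here and for the lists below are not matched for this. The list was chosen with earlier results of these data known, and the counts are descriptions. The 15 genes were ADAR, APOL1, DTX3L, GBP2, IFIH1, N4BP1, N4BP2L2, PARP14, SAMD9, SAMD9L, SLFN5, SP100, SP110, TRIM38 and XAF1, and 5 of them had 0 peaks in either knockdown: N4BP1, XAF1, SLFN5, APOL1 and TRIM38. SLFN5, a Schlafen family member, had 3 members scoring 34.6, 29.5 and 27.3 among 8 control peaks. XAF1 had 3 members scoring 25, 56.5 and 39.4 among 6.

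Others of the list kept peaks beside the member. DTX3L, a ubiquitin ligase that pairs with PARP9, had 3 neighbouring control peaks scoring 31.4, 44.5 and 55.2; the first 2 had a counterpart and the strongest, chr3:122569751-122569975, was the member. In PARP14, a mono-ADP-ribosyltransferase, the strongest control peak (91.1) was found again and the weakest (32.01) was the member. IFIH1, the double-stranded RNA sensor MDA5, had a member of 125 nt scoring 31.0, and a shMETTL3 peak of 7033 nt lay 75 nt from it. ADAR, which edits adenosine to inosine in double-stranded RNA, had its only control peak as member (37.0), a shTRA2A peak 175 nt away and a shMETTL3 peak scoring 22.0 farther along the gene.

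Among the IFIT genes, antiviral proteins that bind foreign RNA and the targets named in the study's title, 2 had a strong, wide control peak. Of these only IFIT2 had members, 1 of 2 or 50%, beside 51.6% over all genes. Its 5 control peaks scored 27.4, 39.9, 33.9, 31.7 and 25.9 in order along the transcript; those of 39.9, 33.9 and 25.9, which were 150, 125 and 200 nt wide, were members. The peak of 31.7, 100 nt wide, was met by a shMETTL3 peak scoring 7.61, and a further shMETTL3 peak of 6.39 began 25 nt after it. shTRA2A listed 0 IFIT2 peaks. IFIT1 had no member because its strong peak without a counterpart was 100 nt wide, at the limit; a shTRA2A peak lay 25 nt and a shMETTL3 peak 125 nt from it.

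Genes of the m6A machinery were themselves among the member genes. In the list of demethylases and readers, all 5 genes with a strong, wide control peak had a member, beside 51.6% over all genes. The 5 listed genes were FTO, PRRC2C, YTHDC1, YTHDF2 and YTHDF3. Here too the shares are not matched for the number of control peaks. PRRC2C had 16, of which 6 had a counterpart, and YTHDC1 had 5, of which 2 had one. FTO, the demethylase, had 1 control peak in its body, of 275 nt and scoring 43.2, and 0 knockdown peaks. YTHDF2, a cytoplasmic reader that promotes decay, had 4 control peaks; those scoring 29.5 and 29.1 were members, and the peak of 38.1 between them met a peak of each knockdown. YTHDC1, the nuclear reader, had a wide member of 2320 nt (35.1) with a shMETTL3 peak 133 nt away. Of 5 genes with a strong, wide peak in the list of m6A writers and other RNA methyltransferases, 3 had a member, beside the same 51.6%: RBM15B (40.9), WTAP (27.3) and ZC3H13 (24.0). WTAP had 4 control peaks and 0 in either knockdown, whereas RBM15B had 3 peaks in each list. ZC3H13 had 9 control, 8 shTRA2A and 13 shMETTL3 peaks, and a shMETTL3 peak lay 25 nt from its member.

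In the receptor kinase, RAS and PI3K list 4 of 12 genes had a member, 33.3% beside 51.6% over all genes. The genes in question were MET, ERRFI1, SPRED1 and DUSP1. The last 3 encode feedback inhibitors of this signalling, with scores of 41.9, 23.0 and 22.3, and none of the 3 had a knockdown peak. ERRFI1 had 1 control peak, and SPRED1 and DUSP1 had 2 each. Of all genes with 1 control peak 55.6% had no knockdown peak, and of all genes with 2 it was 43.5%. MET had 2 members, of 82.2 and 24.4, and its other control peak, of 38.5, met a shTRA2A peak scoring 7.88. In the endocytosis and recycling list 3 of 7 genes (42.9%) had a member, each with 0 knockdown peaks: the GTPases RAB8B (38.1) and ARF6 (24.0) and the retromer subunit VPS26A (21.2). RAB8B had 2 control peaks, and ARF6 and VPS26A had 1 each.

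Among splicing factors 10 of 19 genes had a member, 52.6% beside 51.6% over all genes. For the next lists the share was 45.2% of chromatin regulators, 47.8% of the cell cycle and repair list and 50% of glioma and neural regulators. SON led the splicing factors (65.0), followed by RBM6 (54.9), ARGLU1 (52.3) and SRPK1, the kinase of SR proteins (49.7), which had 0 knockdown peaks. Among chromatin regulators 19 of 42 had one, led after NCOA6 by the remodeller CHD8 (96.6, 8971 nt wide), the demethylase KDM5A (47.1) and ARID5B (42.9), which had 7 control and 0 knockdown peaks. The cell cycle and repair list had 11 of 23, with PLK4, the kinase of centriole duplication (44.6), and RIF1 (41.4) among its stronger members. Glioma and neural regulators had 9 of 18: ZEB1 (39.0), the Notch ligand JAG1 (37.6) and ID2 (37.2) scored highest, and JAG1 and ID2 each had 1 control peak and 0 knockdown peaks.

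The remaining lists lay on both sides of the share over all genes. Extracellular matrix and adhesion genes had members in 10 of 15, led by the collagen gene COL8A1 (45.6, 0 knockdown peaks). Ubiquitin ligases and deubiquitinases had members in 18 of 30, led by RNF6, HERC1 (37.2) and CYLD (31.8), and ZNF genes in 25 of 44, led by ZNF800 (74.1), ZNF281 and ZNF675 (49.2). Of the immediate early and MYC group 3 of 4 had one, among them MYC itself, whose only control peak scored 32.3 and had no knockdown peak in the gene. The lists for centrosome genes (5 of 10), Golgi and secretory genes (5 of 12), translation and decay (6 of 17) and long regulatory RNAs (2 of 6) had a lower share than all genes. Ribosomal proteins and energy metabolism had 0 genes with a strong, wide control peak, and the 1 such histone gene had no member.

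**Figure D5:**
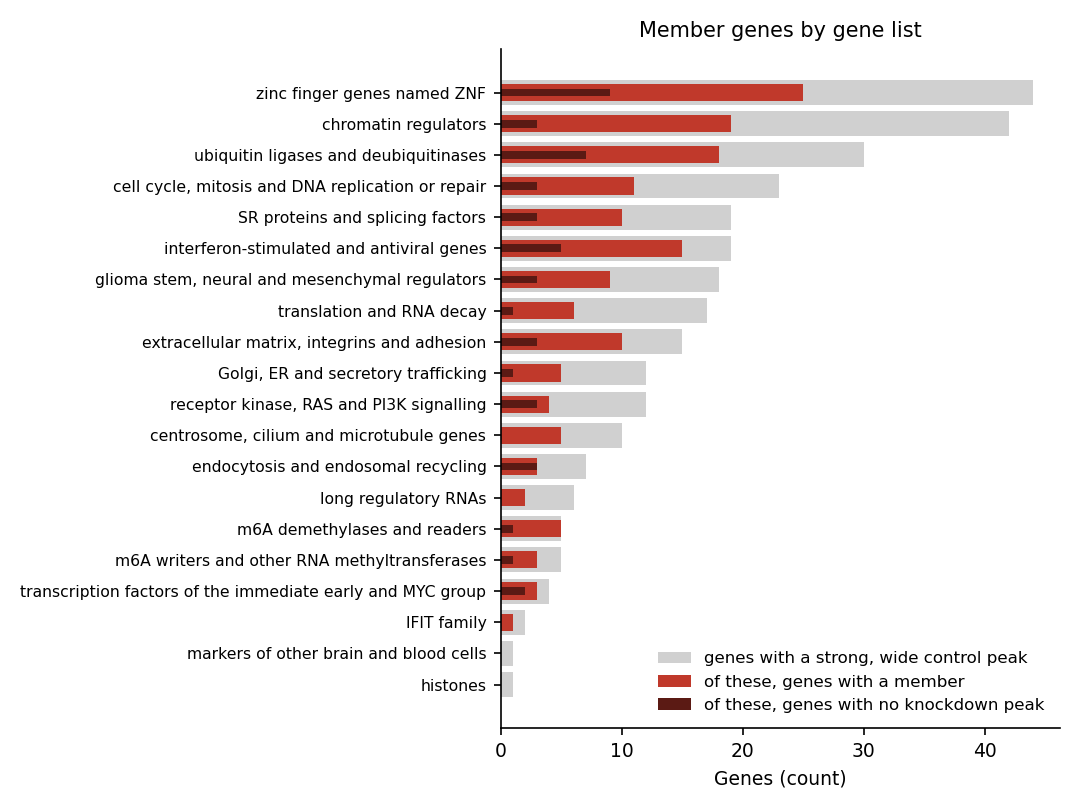
Number of genes with a strong, wide control peak (grey), with a member (red) and with a member but no peak in either knockdown list (dark), for the 20 gene lists with at least 1 strong, wide control peak gene. The interferon-stimulated list has 19, 15 and 5 genes, and the receptor kinase list has 12, 4 and 3.

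Few members lay outside coding genes. There were 5 outside coding and long non-coding genes, 0.69%, beside 0.63% of the peaks found in both and 1.72% of control peaks that missed a threshold. Long non-coding genes held 23, 3.19% (2.04 to 4.75), beside 2.52% (1.10 to 4.91) of the peaks found in both. That share was 2.46% for shMETTL3 alone, 4.94% for shTRA2A alone and 3.82% for control peaks that missed a threshold. Of the 23 members, LINC00342 had the strongest. EP300-AS1 followed, and then the locus LOC124903905 opposite XAF1, whose 3 members scored 57.1, 38.8 and 32.2. Further members lay in CHMP3-AS1 (40.5), ACBD3-AS1 (36.0), LAMA4-AS1 (32.4) and ZNF225-AS1 (31.7), of which the last had 1 peak in each knockdown and the others 0 on their strand. On the other strand, a shTRA2A peak of 5613 nt, placed in ACBD3, overlapped the ACBD3-AS1 member. FTX, a long RNA of the X chromosome, had members on both strands.

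Strand was part of the selection, so peaks on the other strand over a member were counted too. On the strand opposite to their gene lay 26 members, 3.61% (2.37 to 5.25), and 16 of the 26 were not regular. The share was 1.26% (0.345 to 3.20) of the peaks found in both knockdowns and 1.12% (0.364 to 2.59) of those in shMETTL3 alone. It was 4.32% (1.75 to 8.70) of those in shTRA2A alone, and each of these intervals overlaps that of the members. The gene of 97 members had no known strand and 5 members had no gene, so none of these could be counted as opposite. A control peak on the other strand covered part of 86 members, 11.9% (9.67 to 14.5), beside 6.31% (3.90 to 9.58) of those found in both. It was 7.83% (5.51 to 10.7) of those found in shMETTL3 alone and 12.3% (7.71 to 18.4) of those found in shTRA2A alone. Among control peaks that missed a threshold it was 6.42% (5.87 to 6.99). For 23 members, 3.19% (2.04 to 4.75), a knockdown peak lay on the other strand over the same bases, 18 of these members not regular. Counted in the same way, whatever lay on the peak's own strand, this was so for 5.68% (3.40 to 8.83) of the peaks found in both, 5.82% (3.83 to 8.41) of those in shMETTL3 alone and 9.88% (5.75 to 15.5) of those in shTRA2A alone. Members also faced each other: 21 pairs overlapped on opposite strands, and in 3 pairs the starts differed by 2 nt or less. The clearest were in XAF1, where the plus-strand member chr17:6774208-6774582 (56.5) faced a minus-strand member at 6774206-6774580 (57.1), and its neighbour at 6775083-6775532 (39.4) faced one at 6775081-6775530 (38.8). In ZNF587 the 4 members form 2 further facing pairs, whose starts differ by more than 2 nt. What sets these pairs was not tested, and they count as separate members throughout.

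Members were spread over the chromosomes. The share of strong, wide control peaks that were members ran from 36.0% (17.97 to 57.5) on chromosome 22 to 53.1% (42.7 to 63.2) on chromosome 4, and every chromosome's interval included the 43.7% of all.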

How the data were processed

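Total RNA of U-251 MG cells was fragmented, and its m6A pulldown and input were turned into strand-specific libraries, per the labels' protocols. The build GRCh38 and, with it, HISAT2 2.2.1, featureCounts 2.0.1 and SAMtools are named per the submitters' processing notes; for the peak caller, its thresholds and the depth, no source used here gives a value. The deposited 12-column peak lists carry in column 5 a score from the authors' peak caller. Of 4 lists, 1 matches no label, equals the shTRA2A list and was not used. Peaks were compared with Python 3.11.15, pandas 2.3.3 and numpy 2.4.6, with 1 shared base on the same strand counting as found; intervals came from scipy 1.17.1 and figures from matplotlib 3.10.9. Overlaps were checked on simulated peaks and against bedtools 2.31.1, with 0 differences. Coordinates count from 1 on GRCh38.

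Genes came from RefSeq bodies (GRCh38.p14; 38386 coding and long non-coding genes, 27305 with a strand from the start windows). A peak was given a coding gene not known to run the other way, then such a long non-coding gene, then genes on the other strand, and within a class the body holding most of it. All 2815 overlapping windows of opposite genes were reverse complements, as their orientation requires. Named genes followed rules on score, number of members, thresholds, gene lists, neighbours, strand and position; SLFN5, TRIM38, APOL1, DTX3L, PARP14, IFIH1, YTHDF3, SP100, SP110, GBP2, N4BP2L2 and the genes of the sequences were named beyond them after their values were seen. Some genes that the rules name are not reported here. The members, the thresholds and the 22 gene lists were chosen with earlier results of these data known. Alternative thresholds, overlap rules and gene assignments were run.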

Additional observations from a re-analysis of the deposited data

How the results depend on the processing

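Of 66 values recomputed under other settings, 48 stayed within 1.5 times the count or within the interval of the share or median, and 18 did not. Requiring a knockdown peak to cover 50% of the control peak gave 1226 members, 74.5% absent and 922 genes. A score of 15 gave 1534, 55.4% and 1154; of 30, 274, 32.3% and 250; of 40, 107, 23.7% and 102, with 40.2% beyond 80% of the gene body. Regular peaks alone gave 452, 41.3% and 376, with a median distance of 5754 nt. Counting knockdown peaks within 100 nt as found gave 39.9% absent. The share of member genes with no knockdown peak stayed between 36.7% and 41.8%. Without the control peaks faced by one on the other strand, chosen after seeing the data, 634 members were left, and 42.7% were absent. No paired analysis was possible because each condition has 1 peak list. The score orders peaks within 1 list only, an absent peak can be one just under the caller's unstated threshold, and neither depth nor RNA level was known, so how far these set the absence was not tested.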
